A study of Mus musculus and Homo sapiens with 60 samples.

Results

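The Myc locus was described as every peak that fell in a fixed window around the gene, in each of 53 deposited ChIP-seq peak lists. For the mouse lists (mm9) the window was chr15:60800000-63500000 around Myc at chr15:61816900-61822000, and for the human lists (hg19) it was chr8:127700000-130800000 around MYC at chr8:128748315-128753680. The windows held 1358 peaks of 1483531 in all lists, 1253 of 1298213 in the 44 mouse lists and 105 of 185318 in the 9 human lists. At the downstream end of the mouse window, the last peak of the spleen H3K4me1 lists lay within 1 kb of the edge and the next one 9.74 to 20.4 kb outside it. In the Myc lists of spleen and tumours the nearest peak beyond that edge was 328 to 353 kb away.

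Myc is a transcription factor that binds E-box DNA with its partner Max and drives growth and cell cycle entry, and it can also act on its own gene. Its gene sits in a wide interval with few protein-coding genes, where tissue-specific enhancers far up- and downstream are known to control it, among them a cluster used by blood cells far beyond the long non-coding RNA gene Pvt1. In the RefSeq annotation of the later mouse build GRCm38, Pvt1 is the next gene downstream of Myc. Trimethylated lysine 4 of histone H3 (H3K4me3) marks active promoters, monomethylated lysine 4 (H3K4me1) marks enhancers and their flanks, acetylated lysine 27 (H3K27ac) marks active elements of both kinds, and RNAPII is RNA polymerase II.

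The study profiled these features along Myc-driven lymphomagenesis and in cells with switchable Myc. Wild-type and Eµ-myc transgenic C57BL/6 spleen B cells came from animals of 6 to 8 weeks and were enriched on B220 beads, whereas tumour cells were pressed from the lymph nodes of Eµ-myc animals with no purification. The Eµ-myc transgene places a Myc copy under the immunoglobulin heavy chain enhancer, so that B lineage cells express it from early on. The fibroblasts were 3T9 cells with floxed c-myc alleles (c-myc flox/flox, mixed strain) that carried MycER, a Myc protein fused to the oestrogen receptor, brought in by infection in culture. They received 400 nM 4-hydroxytamoxifen for 4 h or ethanol (0 h). Separate 3T9 samples were held in 0% serum for 48 h (0 h) and then given 10% serum for 1 or 2 h. P493-6 is a human B cell line, derived with Epstein-Barr virus, that carries a tetracycline-repressed MYC transgene. It was kept in 0.2 µg/mL tetracycline (0 h), in tetracycline with 200 nM OHT, which the labels give as low Myc with the endogenous Myc activated, or untreated (high Myc), and further cultures were released from 72 h of tetracycline for 1 or 24 h.

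The Eµ-myc Myc lists came from 1 wild-type spleen, 3 transgenic spleen and 3 tumour samples. RNAPII and H3K27ac had 1, 1 and 3 samples, and H3K4me3 and H3K4me1 had 2, 2 and 3. Every fibroblast and P493-6 state had 1 sample per antibody, so differences there have no replicate check. Lists ranged from 791 peaks (P493-6 Myc at 0 h) to 77144 (fibroblast H3K4me1 at 0 h). Read depth is unknown from peak lists, so a gained or lost peak cannot be told apart from a change in depth or enrichment of a library. Nor can a weaker signal in every cell be told apart from the same signal in fewer cells. The cell types could not be checked against marker genes, since no gene annotation of mm9 or hg19 was used here, and what other cells in the unpurified tumours contributed was not tested. Reads from the Eµ-myc, MycER and P493-6 transgenes can add to the gene body, where they cannot be told apart from reads of the resident gene. The flanks are given apart from the gene, taken as the gene with 5 kb on each side.

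At the Myc gene, no Myc peak was present in wild-type spleen. That list held 47.7% of its numbered peaks, and whether a peak on the gene was among those removed was not tested. In transgenic spleen 1 a single Myc peak of 432 bp lay at the gene start (chr15:61816920-61817351). These 2 lists stood apart in peak width: their median widths were 233 bp (wild-type) and 261 bp, while those of the other 5 Eµ-myc Myc lists lay between 1386 and 1476 bp. Transgenic spleens 2 and 3 had Myc peaks from -2.2 to 10.2 kb and from -2.4 to 7.0 kb of the gene start, positive values being downstream. The tumours had them from -2.1 to 12.0, from -1.3 to 7.1 and from -1.4 to 9.8 kb. All 6 lists of transgene carriers thus had a peak on the gene, and the 1 wild-type list had none. The strongest peak on the gene was placed by the percentile of the authors' score within its own list, tied scores sharing a mid-rank. Such a percentile describes a place within 1 list and depends on the list's length, since a longer list adds weak peaks below a given one. The percentiles were 53.8, 87.1 and 93.0 for the transgenic spleens, in lists of 12956, 5246 and 12985 peaks, and 97.4, 94.4 and 97.4 for the tumours, in lists of 29252, 27347 and 34142. Counted from the top of each list, the same peaks had the ranks 5985, 679 and 907 among transgenic spleen lists, and 769, 1536 and 903 among tumour lists. The groups were apart by percentile (exact permutation p = 0.100, the smallest that 3 against 3 allows) and overlapped by rank (exact permutation p = 0.800). Their mean difference of 18.4 percentile points was 6.32 without transgenic spleen 1.

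RNAPII occupied the gene in every Eµ-myc list, and its covered stretch was longest in tumours. In wild-type spleen the RNAPII peak ran from -1.2 to 2.8 kb, covering 4.08 kb. In transgenic spleen 3 peaks ran from -1.8 to 9.8 kb and covered 11.6 kb. In each tumour 1 unbroken peak began near -2 kb and ended at 11.9, 12.0 or 12.4 kb, covering 13.8, 14.1 and 14.5 kb. The tumours did not overlap the spleen samples (14.1 ± 0.351 kb against 7.84 kb, exact permutation p = 0.200, the smallest that 3 against 2 allows). The score percentile was 98.2 (wild-type spleen), 99.5 (transgenic spleen) and 97.8 to 98.7 (tumours). The transgenic spleen and tumour peaks all had the tied score of 3100. Their percentiles depend on how many peaks of the list reach that score, so they could not separate these groups. The annotated gene ends near 5.1 kb, so most of the added length lay past it.

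H3K4me3 at the gene followed the same order of lengths. Its last base was at 3.5 and 4.9 kb in the wild-type lists, at 7.3 and 7.7 kb in those of transgenic B cells and at 12.7, 7.7 and 12.0 kb in tumours. Wild-type spleens were shortest, and tumour 2 ended with the transgenic spleens. On the gene it covered 5.55 and 6.99 kb in the wild-type lists, 9.37 and 9.62 kb in those of transgenic B cells and 15.0, 9.56 and 13.9 kb in tumours. The tumours overlapped the spleens on this measure (12.8 ± 2.88 against 7.88 kb, exact permutation p = 0.114, the smallest allowed by 3 against 4 being 0.0571).

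For H3K4me1 and H3K27ac the 2 sides of the gene differed. Upstream, spleen H3K4me1 peaks reached back to -5.2 and -5.5 kb in wild-type and to -5.2 and -5.0 kb in transgenic samples, and tumour 2 reached -5.1 kb. Tumours 1 and 3 began at -2.1 kb. The H3K27ac peaks reached -5.8 kb in wild-type and -5.3 kb in transgenic spleen, and began at -2.1, -1.8 and -2.1 kb in the tumours. The region just upstream (chr15:61811120-61814457) therefore carried H3K27ac in both spleen lists, at percentiles of 81.9 and 49.9, and in no tumour list. Downstream, H3K27ac ended at 4.6 kb in the wild-type list, at 6.3 kb in the transgenic spleen list and at 12.0, 7.1 and 12.0 kb in tumours. The total length on the gene differed little, at 11.9 ± 2.67 kb in tumours and 10.5 kb in spleen for H3K27ac (exact permutation p = 0.60, smallest possible 0.200), and 12.1 kb against 11.7 kb for H3K4me1 (exact permutation p = 0.857, smallest possible 0.0571). Among the Eµ-myc lists, the stretches past 5 kb appeared only in samples that carry the transgene, where the resident gene and transgene copies cannot be told apart as their source. In 3T9 fibroblasts, another cell type that lacks that transgene but carries MycER, H3K27ac ran from -3.2 to 9.9 kb and RNAPII from -2.1 to 8.7 kb at 0 h. The source of the stretches past 5 kb was not tested in either model.

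Away from the gene, H3K27ac and H3K4me1 peaks were far fewer in tumours than in spleen B cells. The window held 81 H3K27ac peaks in the wild-type list, 30 in the transgenic spleen list and 10, 18 and 11 in those of the tumours. Wild-type spleen had the most, and no tumour reached either spleen list. Off the gene the means were 10.0 ± 5.29 in tumours (n = 3) and 53.0 ± 36.8 in spleen (n = 2), 5.30-fold fewer (exact permutation p = 0.200, the smallest allowed). The acetylated length had the same order, with 236 kb in wild-type and 88.4 kb in transgenic spleen and 27.2, 52.2 and 30.0 kb in tumours. Upstream of the gene there were 23 and 11 peaks in spleen and 1, 4 and 0 in tumours.

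H3K4me1 had more replicates and behaved alike. Wild-type spleens had 72 and 67 peaks, transgenic spleens 62 and 50, and tumours 14, 31 and 17. Every tumour was below every spleen sample, and both transgenic samples were below both wild-type samples. The mean was 20.7 ± 9.07 in tumours (n = 3) and 62.8 in spleen (n = 4), 3.04-fold fewer, at an exact permutation p = 0.0571 by doubling the smaller tail, which is the smallest this design allows. The p from absolute differences was 0.0286 by the same exact permutation. Transgenic against wild-type spleen (56.0 against 69.5, n = 2 each) gave an exact permutation p = 0.333, again the smallest possible. Spleen had more peaks than tumours on both sides of the gene: 14.5 against 3.67 peaks upstream, 32.5 against 12.7 within 500 kb downstream and 12.8 against 2.00 farther downstream, with no overlap between tumours and spleen in any of these zones.

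The lists as a whole were not shorter in this way. Tumour H3K4me1 lists had 49519, 47607 and 66090 peaks and spleen lists 42722 to 55996, and chromosome 15 held 4.14% to 4.23% of the tumour peaks and 4.09% to 4.21% of the spleen peaks. Per 1000 peaks of a list, the window held 0.397 H3K4me1 peaks in tumours and 1.29 in spleen. For H3K27ac these values were 0.379 and 1.48, with list lengths of 31642 to 42542 in tumours and 40757 and 30895 in spleen. The transgenic spleen H3K27ac list was the shortest of these, so its 30 peaks stand beside a list 0.758 times as long as the wild-type one.

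**Figure D1:**
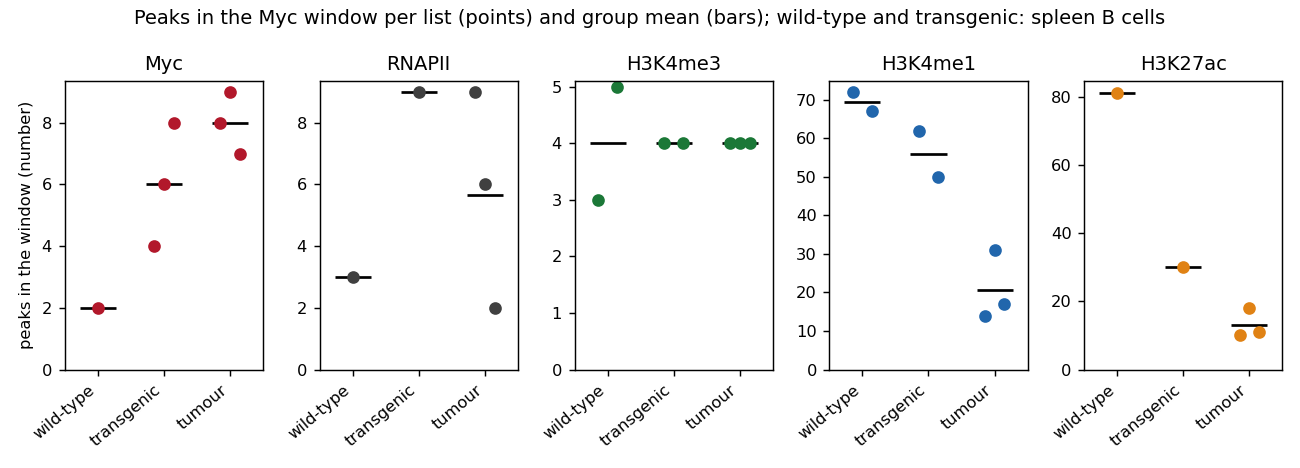
Number of peaks in the Myc window in each Eµ-myc list (points) and the mean of each group (horizontal bars), 1 panel per antibody with its own axis from 0; wild-type and transgenic are spleen B cells. For H3K4me1 the 3 tumours sit at 14 to 31 peaks below all 4 spleen samples at 50 to 72, and for H3K27ac at 10 to 18 below 81 and 30.

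To follow single elements, the peaks of all Eµ-myc lists of an antibody were merged into regions, and a region was called common when every list had it, spleen-only when every spleen list and no tumour list had it, and tumour-only in the opposite case. Of 84 H3K27ac regions in the window, 16 were spleen-only (19.0%), against 2.55% of all such regions in the genome. Common regions numbered 3, or 3.57% against 27.4%, and tumour-only regions 0 against 0.534%. The spleen-only count was 2 when only peaks at or above each list's median score were used, and 66 without the transgenic spleen list, whose absence leaves the wild-type list alone. A further 54 regions were in the wild-type and not in the transgenic spleen list (64.3% against 21.2%), whether or not a tumour had them. Some of these had a peak in tumour 2 or tumour 3. Of the 26 regions in both spleen lists, 5 were found in tumour 1 (19.2% against 76.0% in the genome), 10 in tumour 2 (38.5% against 83.8%) and 4 in tumour 3 (15.4% against 80.1%).

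For H3K4me1, 10 of 81 regions were spleen-only (12.3% against 1.03%), 5 were common (6.17% against 24.5%) and 0 were tumour-only (against 0.487%). The spleen-only count was 21 without tumour 2 and 20 without transgenic spleen 2, and 6 with the median score filter. Of the 32 regions in all 4 spleen lists, tumours 1, 2 and 3 had 8 (25.0%), 20 (62.5%) and 8 (25.0%), whereas over the genome they had 86.4%, 89.2% and 83.2%. Tumour 2 thus had the most of the regions found in every spleen list, in both marks.

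The 10 H3K27ac elements off the gene that were present in the most Eµ-myc lists fell into 3 patterns. Only 2 of them were acetylated in every list. The element at +53.5 kb (chr15:61868085-61872807) had H3K27ac percentiles of 91.9 (wild-type spleen), 94.9 (transgenic spleen) and 93.8, 89.6 and 91.4 in tumours. In each list this is the percentile of peaks tied at a score of 3100. Where 91.9 (wild-type spleen), 94.9 (transgenic spleen) and 89.6 (tumour 2) recur for other elements, they stand for that same score. The element at +189 kb (chr15:61995553-62015978, 20.4 kb long) had 91.9 and 94.9 in spleen and 80.0, 89.6 and 54.0 in tumours. That length is of peaks merged over the lists, so a single list can cover only part of the element. Its H3K4me1 percentiles were 95.9 to 99.1 in spleen and 87.4, 94.9 and 73.2 in tumours.

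Upstream elements made the second pattern. The element at -542 kb (chr15:61269701-61280709, 11.0 kb) was acetylated at percentiles of 91.9 and 94.9 in spleen, at 54.3 in tumour 2 and in neither other tumour. The element at -444 kb (chr15:61368978-61377244) had 91.9 and 89.0 in spleen, 47.9 in tumour 1, 68.1 in tumour 2 and no peak in tumour 3. At -438 kb and -315 kb the spleen lists had 77.7 and 52.2, and 45.7 and 32.6, and tumour 2 was the only tumour with a peak, at 0.0861 and 10.9. Tumour 3 had no H3K27ac or H3K4me1 peak upstream of the gene beyond 5 kb.

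Of the remaining downstream elements, 1 had H3K27ac in no tumour and 3 had it in some. The element at +280 kb (chr15:62093865-62098981) had H3K27ac at 91.9 and 51.1 in spleen and none in any tumour, and its H3K4me1 was present in all 4 spleen lists and in tumour 2 alone, at 10.7. The element at +155 kb was acetylated in tumours 1 and 2 (25.2 and 12.9), at +72.3 kb in tumours 2 and 3 (1.09 and 50.1), and at +1138 kb in tumour 2 only (19.4). In spleen the same elements had 52.6 and 23.5, 62.6 and 56.7, and 60.1 and 36.0.

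The 16 spleen-only H3K27ac regions included the region just upstream of the gene. A run of 5 stood at -576, -573, -567, -562 and -556 kb (chr15:61238651-61263087), with wild-type spleen percentiles of 45.3 to 69.0 and transgenic ones of 4.51 to 39.5. The region at +840 kb (chr15:62655113-62658018) had 72.2 and 40.5, that at +366 kb had 67.6 and 46.7, and the most distant, at +1631 kb, had 32.7 and 28.2. Those at +211 and +222 kb had 57.9 and 12.2, and 66.6 and 2.71.

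**Figure D2:**
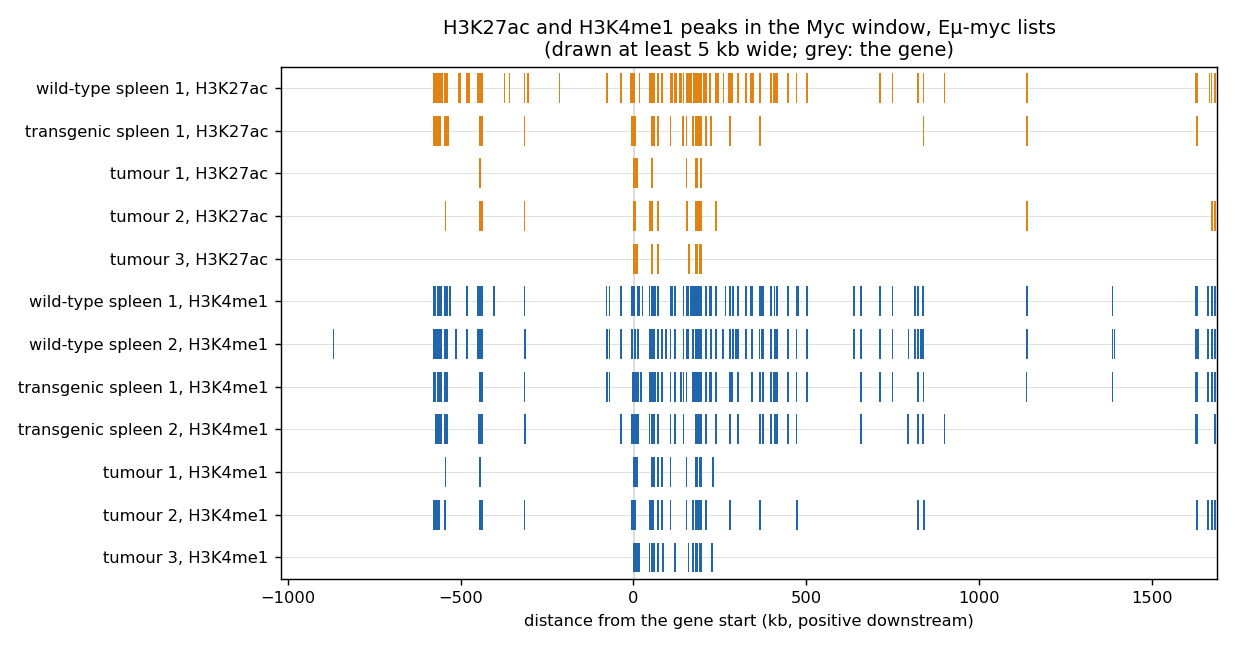
H3K27ac (upper 5 rows) and H3K4me1 (lower 7 rows) peaks in the whole mouse window by distance from the Myc gene start in kb; bars are peaks, drawn at least 5 kb wide, and the grey line at 0 is the gene. Peaks near -542 and -444 kb and beyond 300 kb downstream are fewer in the tumours, while those at +53.5 and +189 kb are present in every row.

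Myc, RNAPII and H3K4me3 peaks in the window were few and did not follow the order of the enhancer marks. The wild-type list had 2 Myc peaks, the transgenic spleen lists had 4, 6 and 8, and the tumour lists had 8, 9 and 7. The transgenic spleens and the tumours overlapped (6.00 ± 2.00 and 8.00 ± 1.00, exact permutation p = 0.300, smallest possible 0.100). Per 1000 peaks of a list the direction turned, to 0.688 in transgenic spleen and 0.269 in tumours (exact permutation p = 0.200), because the tumour Myc lists had 27347 to 34142 peaks and the transgenic ones 5246 to 12985. Of 13 Myc regions, 1 was common (7.69% against 5.38%), 0 were tumour-only (against 8.57%) and 0 were spleen-only. The common count was 2 without wild-type spleen or without tumour 2, and the tumour-only count was 1 without tumour 1.

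The 1 common Myc region off the gene was the one at +53.0 kb (chr15:61868073-61871778), inside the element described at +53.5 kb. Its Myc percentile was 92.3 in the wild-type list, 91.9, 86.6 and 95.1 in the transgenic spleen lists and 97.4, 97.7 and 98.8 in the tumours. By rank from the top of the list these peaks stood at 539 in the wild-type list, at 1051, 704 and 635 in the transgenic spleen lists and at 769, 624 and 406 in the tumours, which overlapped. In wild-type spleen it was the higher of only 2 Myc peaks in the window. H3K4me3 was present there in all 7 lists at 73.8 to 83.9. In the 3 tumours, wild-type spleen 2 and transgenic spleen 2 this was the percentile of the tied score of 3100. In wild-type spleen 1 (73.8) and transgenic spleen 1 (77.2) it was below that score's percentile, 94.4 and 89.6. RNAPII was absent there in wild-type spleen and had 48.3 in transgenic spleen and 72.9, 80.9 and 39.7 in tumours.

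The second most frequent off-gene Myc region, at +196 kb (chr15:62012149-62013870) within the element at +189 kb, had Myc at 63.5 in the wild-type list, 26.5, 60.3 and 78.5 in the transgenic spleen lists, 32.9 and 56.6 in tumours 1 and 3 and no peak in tumour 2. At -445 kb Myc was present in transgenic spleens 2 and 3 (43.5 and 37.2) and in tumours 1 and 2 (21.4 and 75.9). Of the off-gene Myc peaks of tumours 1, 2 and 3, 5 of 5, 6 of 7 and 5 of 5 lay on H3K4me1 peaks of some tumour, against 94.4%, 94.4% and 95.8% of all Myc peaks in these lists. These regions other than the one at +53.0 kb were named after their values were seen.

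Of RNAPII the wild-type list had 3 peaks, the transgenic spleen list 9 and the tumours 9, 6 and 2, which overlapped (exact permutation p = 1.00). Of 9 RNAPII regions, 1 was common, that of the gene (against 20.1% in the genome), 0 were tumour-only (against 7.22%) and 0 spleen-only (against 0.280%). Without transgenic spleen or without tumour 3 the tumour-only count was 1, without wild-type spleen the common count was 2, and without tumour 2 the spleen-only count was 2. At +269 kb (chr15:62084610-62086810) RNAPII was present in tumours 1 and 2 at 50.4 and 49.6 and in no spleen list. At +184 kb it was present in wild-type and transgenic spleen (81.6 and 49.3) and in tumour 2 (12.2). Both wild-type H3K4me3 lists, with 3 and 5 peaks, were close to the 4 peaks of each transgenic spleen and tumour list. Of 6 H3K4me3 regions, 2 were common, those of the gene and of +53.3 kb (against 46.2% in the genome), with 0 tumour-only (against 1.16%) and 0 spleen-only (against 0.434%).

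In 3T9 fibroblasts at 0 h the Myc window held 162 H3K4me1 and 80 H3K27ac peaks, which covered 475 and 508 kb. The first wild-type spleen lists had 72 and 81 peaks covering 211 and 236 kb, so that the fibroblasts had nearly as many H3K27ac peaks, which covered more. Of the 81 H3K27ac peaks of wild-type spleen, 46.9% (exact binomial 95% interval 35.7% to 58.3%) overlapped a fibroblast peak, and over the genome 36.6% did. In the other direction 32.5% of the 80 fibroblast peaks (22.4% to 43.9%) overlapped a spleen peak, against 42.1% over the genome. These intervals cover counting error only. Of the 10 B cell elements, those at -444, +53.5, +155 and +280 kb were acetylated in fibroblasts at 0 h and 4 h. Those at -542, -438, -315, +72.3, +189 and +1138 kb were not. The long element at +189 kb overlapped an H3K27ac peak in all 5 Eµ-myc lists. In fibroblasts it had no H3K27ac, although H3K4me1 was present at 19.4 and 54.5.

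Activation of MycER went with more Myc and RNAPII peaks in the window. The Myc peak on the gene had a percentile of 57.3 at 0 h and 85.8 at 4 h, or rank 7687 of 18000 and 3939 of 27693, and its extent was -2.4 to 3.1 kb and then -2.6 to 8.0 kb. In the window Myc peaks went from 33 to 52. Of 53 merged regions, 21 were found at 4 h only (39.6%), against 38.7% over the genome, and 1 at 0 h only (against 1.72%). The share of new Myc regions was therefore near that of the genome. With the same number of highest-scoring peaks taken from each list the window held 33 at 0 h and 27 at 4 h.

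RNAPII departed further from the genome. Its window peaks went from 24 to 51, and 19 of 38 regions were found at 4 h only (50.0% against 22.6%), with 0 at 0 h only (against 26.5%). Nearly all lay within 500 kb downstream of the gene, where 21 peaks at 0 h and 45 at 4 h covered 140 and 228 kb. The RNAPII peaks that started less than 300 kb downstream ran from 51.4 to 280.2 kb at 0 h and from 51.5 to 287.8 kb at 4 h. They covered 134 kb in 19 peaks and 222 kb in 42 peaks, with the highest percentile at 78.0 and 93.0. Between the gene's own RNAPII peak, which ended at 8.7 and 8.0 kb, and about 51 kb there was none at either time. The gene's RNAPII percentile was 97.6 and 98.1, that of the tied score of 3100 at both times. Chromosome 15 as a whole held 4.72% of the RNAPII peaks at 0 h and 5.62% at 4 h. The median width of peaks in these lists was 1777 and 1153 bp, and what splitting of peaks added to the counts was not tested. The 2 libraries were the only samples of their kind, and a difference in their depth was not tested.

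The histone marks around the fibroblast gene differed less between the times. H3K4me3 had 7 peaks at each time, with 1 of 8 regions new (against 1.12%) and 1 lost (against 6.74%). H3K4me1 went from 162 to 147 peaks, with 4 of 154 regions new (against 7.04%) and 10 lost (against 6.06%). H3K27ac went from 80 to 78 peaks, with 3 of 83 regions new (against 5.59%) and 13 lost (against 11.9%). Its covered length within 500 kb downstream was 212 kb at 0 h and 148 kb at 4 h, and its longest peak there was 42.3 and 20.8 kb.

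After serum, Myc had a peak on its own gene, which lacked one in starved cells. At 0 h no Myc peak was present on Myc, at 1 h a peak of 2.07 kb ranked at a percentile of 6.59, and at 2 h peaks from -1.4 to 7.5 kb reached 70.4. The window held 12, 13 and 23 Myc peaks at 0, 1 and 2 h. Between 0 and 2 h, 14 of 26 regions were new (53.8% against 66.1% over the genome) and 3 were lost (against 4.04%). Per 1000 peaks of a list the order was the opposite, at 2.06, 1.6 and 1.4, as the lists grew from 5832 to 8105 and 16384 peaks.

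In all 5 fibroblast Myc lists the highest off-gene Myc score was at the place shared with the Eµ-myc lists, about +53 kb, tied at 4 h of MycER with a peak at +343 kb. Its percentile was 95.6, 97.0 and 97.3 at 0, 1 and 2 h of serum, and 99.4 and 97.6 at 0 and 4 h of MycER. It was present before serum, when the gene itself had no peak. H3K4me3 was present there at 65.8 and 67.1 at 0 and 4 h of MycER. These are the percentiles of the tied score of 3100, which the gene's own H3K4me3 peak also had. In these lists 68.0% and 65.3% of peaks reached that score. Other leading sites were also shared between the experiments. A peak at about +343 kb was among the 5 strongest of every fibroblast list, at 72.1, 76.1 and 88.1 with serum and 90.3 and 97.6 with MycER, and one at about +516 kb was so at 0 h of serum (54.3) and in both MycER lists (89.5 and 87.3). All 31 off-gene Myc peaks at 0 h and all 50 at 4 h of MycER overlapped H3K4me1, near the 98.2% and 96.7% of all Myc peaks in these lists. For H3K27ac the counts were 31 and 48, beside 94.4% and 88.1%.

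**Figure D3:**
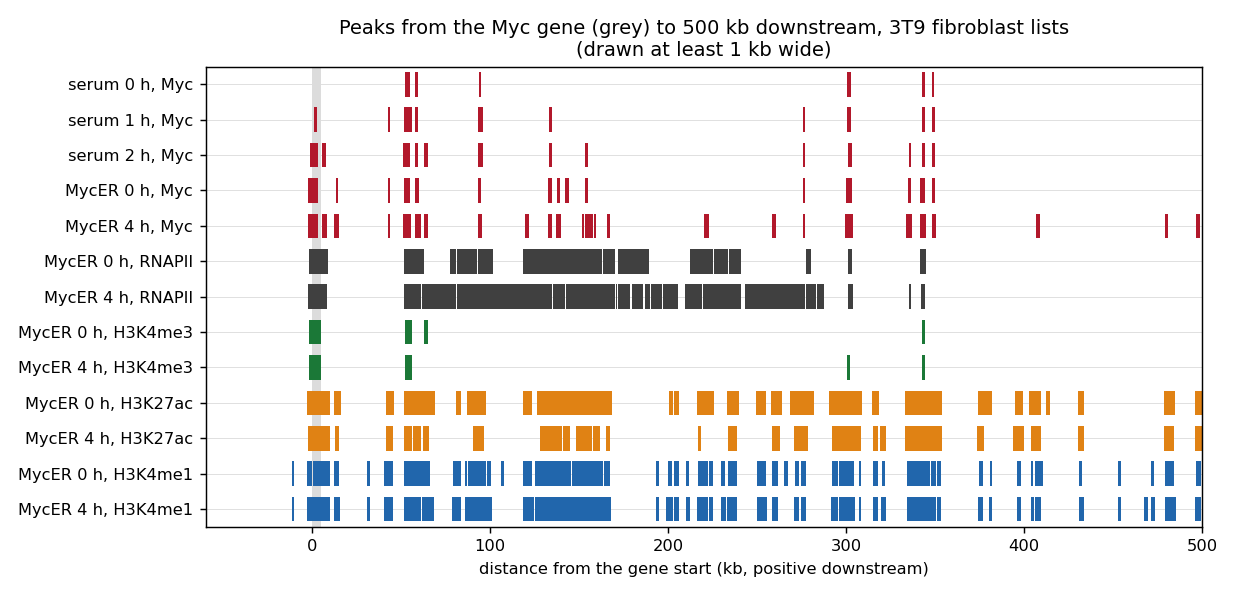
Peaks from the Myc gene (grey) to 500 kb downstream in the 3T9 lists, 1 row per list, by distance from the gene start in kb; bars are peaks, drawn at least 1 kb wide. RNAPII within 300 kb covers 134 kb at 0 h and 222 kb at 4 h of MycER, and the Myc peak near +53 kb is present in all 5 Myc rows.

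In P493-6 cells the peaks on MYC had a common left edge inside the gene. In all 5 Myc lists and both RNAPII lists they began 1.7 kb downstream of the gene start. The Myc peak ended at 5.2 kb at 0 h, 5.1 kb with low Myc, 5.2 kb at 1 h, 5.9 kb at 24 h and 5.8 kb with high Myc. Its percentiles were 90.8, 90.9, 89.0, 100 and 99.6 in that order, so the gene stood among the strongest Myc sites also in tetracycline. The RNAPII peaks reached 5.8 kb at 0 h and at 24 h, with percentiles of 97.7 and 99.3. None of these 7 lists had a peak at the gene start itself. At 24 h, H3K27ac ran from 1.4 to 7.2 kb (94.4), and only H3K4me3 spanned the start, from -2.3 to 6.7 kb (83.4). Both percentiles are those of the tied score of 3100. The MYC transgene and the resident gene cannot be told apart as the source of these peaks.

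Away from the gene, Myc peaks of P493-6 were found only in the longer Myc lists. There was 1 peak in the window at 0 h and 1 with low Myc, both on the gene, 3 at 1 h, 8 at 24 h and 7 with high Myc. Per 1000 peaks of a list these were 1.26, 0.232, 0.346, 0.438 and 0.268. Between low and high Myc, 6 of 7 regions were new, against 84.5% over the genome, in lists of 4309 and 26146 peaks. From 0 to 24 h, 7 of 8 regions were new, against 95.9% over the genome, and 0 were lost (against 0.896%), so the gene was the member already present. The Myc list itself went from 791 to 18257 peaks, and with equal numbers of highest-scoring peaks each list had 1 in the window. RNAPII went from 4 to 10 peaks, with 8 of 11 regions new (against 57.0%) and 1 lost (against 9.58%). The RNAPII list went from 13026 to 24613 peaks, and with equal numbers of highest-scoring peaks the direction turned, to 4 peaks at 0 h and 3 at 24 h. All 9 off-gene RNAPII peaks at 24 h lay within 500 kb downstream.

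The strongest off-gene Myc site in P493-6 at 24 h and with high Myc lay 58.4 to 60.3 kb downstream (chr8:128806692-128808588 with high Myc). It had percentiles of 93.5 with high Myc, 77.0 and 67.6 for the 2 peaks that made it up at 24 h and 20.4 at 1 h. It had no Myc peak at 0 h or with low Myc. RNAPII was there at both times, at 85.0 at 0 h and 81.7 at 24 h. At 24 h the site carried H3K4me3 from 58.4 to 65.3 kb and H3K27ac from 58.5 to 64.2 kb. Their percentiles of 83.4 and 94.4 are those of the tied score of 3100. A farther Myc site at +1811 kb (chr8:130558985-130559439 with high Myc) was the strongest off the gene at 1 h (64.8) and was present at 24 h (47.5) and with high Myc (37.9), inside an H3K27ac peak of 10.6 kb. Weaker sites lay at +335 kb at 24 h (24.1) and with high Myc (26.4), at +140 kb at 24 h (33.8) and at -539 kb at 24 h (7.55) and with high Myc (22.8). Of the off-gene Myc peaks, 5 of 7 at 24 h and 5 of 6 with high Myc overlapped H3K27ac of the 24 h cells, against 91.9% and 85.4% of all Myc peaks in these lists.

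The 47 H3K27ac peaks of P493-6 at 24 h covered 119 kb of the window. Off the gene 6 more peaks tied with the gene's peak at the top score. They lay at +61.4, +242, +438, +456, +469 and +1815 kb. An upstream group at -566, -550, -539 and -526 kb had percentiles of 64.1, 83.8, 71.9 and 68.4. These sites were named after their values were seen, and H3K27ac was measured at 1 time only.

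**Figure D4:**
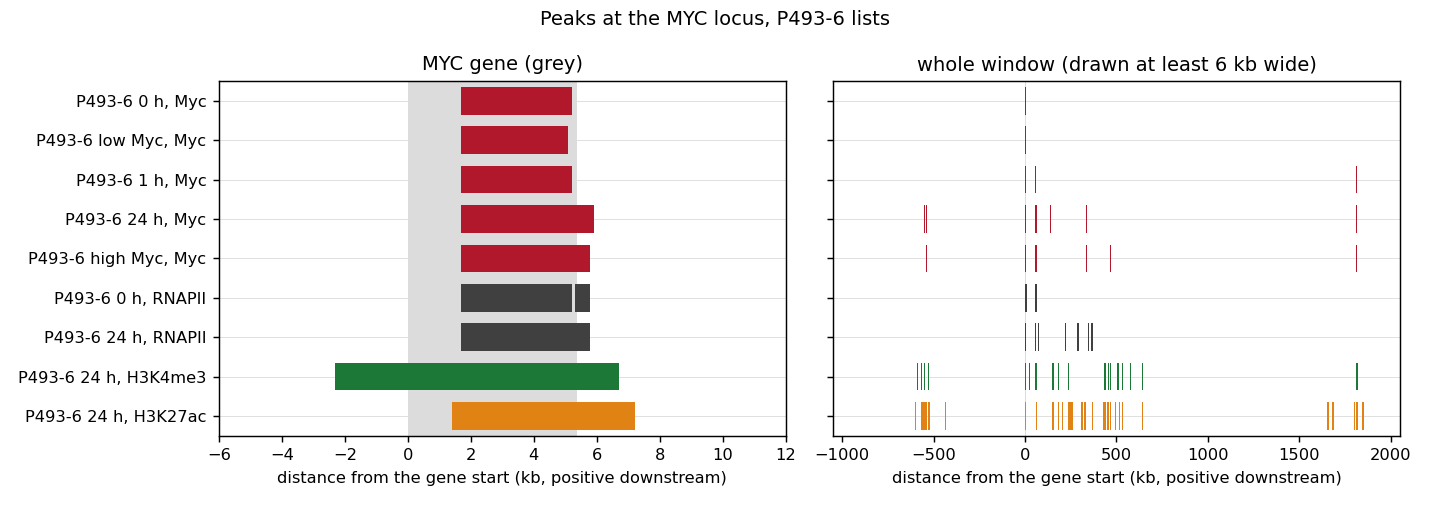
Peaks of the 9 P493-6 lists at the MYC gene (left; grey band) and in the whole window (right; bars drawn at least 6 kb wide), by distance from the gene start in kb. Myc and RNAPII peaks begin 1.7 kb inside the gene in all 7 of their lists, whereas H3K4me3 spans the gene start; off-gene Myc peaks are absent at 0 h and with low Myc.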

How the data were processed

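The submitters' processing notes name BWA 0.6.2, SAMtools and MACS 1.4.1 and the builds mm9 and hg19, without settings. Each deposited peak carries a score of the authors, which here served for ranks and filters inside 1 list. Peaks were listed per sample, 53 lists from 60 samples, the other 7 being inputs not used here. According to the design text, P493-6 lists relied on an input from another series (not used here). The high Myc sample of P493-6 is noted as mm9, but its chromosome 1 peaks reach 249219825, past the 197068979 that mouse lists reach, so hg19 was assumed. Peak numbers had gaps in some lists, which held down to 47.7% of their numbers. No 2 lists were identical (0 pairs).

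A peak counted if it overlapped the window by 1 bp. A start below 0 (6 peaks) was set to 0. Peaks of lists were merged where they shared a base. Groups were compared by exact two-sided permutation of libraries, the p being double the smaller tail, with exact (Clopper-Pearson) 95% intervals for shares. Nothing in the labels says that replicates came from separate animals, so p-values may measure technical spread. Tools were Python 3.11.15, numpy 2.4.6, pandas 2.3.3, scipy 1.17.1 and matplotlib 3.10.9. Overlap counting was tested with simulated lists and against bedtools 2.31.1. Named were peaks on the gene, Myc regions in all 3 tumours, 10 H3K27ac regions in the most libraries, the 5 highest-scoring off-gene Myc peaks of each fibroblast and P493-6 list, and up to 10 one-sided regions per antibody. The members and lists were chosen with earlier results of these data known. No sequence is shown, as no sequence of Myc in these builds was used here.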

Additional observations from a re-analysis of the deposited data

How the results depend on the processing

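The lower number of H3K4me1 and H3K27ac peaks in tumours kept its direction under every setting tried: a median score filter, equal numbers of highest-scoring peaks, covered length, peaks per 1000, the 500 kb around the gene, peaks off the gene (added after seeing the data) and each library left out, with tumour to spleen ratios of 0.247 to 0.382 and 0.160 to 0.433 when a library was left out. By absolute differences, also added later, the H3K4me1 ratio of 0.329 had an exact permutation p = 0.0286. The tumour to transgenic spleen ratio of Myc peaks, 1.33, was 0.727 with equal numbers and 0.390 per 1000, and 1.14 to 1.60 without 1 library. The RNAPII ratio of 0.944 was 1.82 by covered length, 1.17 off the gene, 0.485 with equal numbers, 0.545 per 1000 peaks and 0.630 to 1.89 without 1 library, including 1.25 without tumour 3 and 1.89 without transgenic spleen. The H3K4me3 ratio of 1.00 was 1.33 with the median filter, 1.32 by covered length and 0.606 off the gene. With a region counted only where 50% of it was covered, the common count went from 1 to 0 for Myc and RNAPII and from 2 to 1 for H3K4me3. It went from 5 to 3 for H3K4me1 and from 3 to 2 for H3K27ac, and the RNAPII tumour-only count from 0 to 1. With the median filter spleen-only counts were 6 (H3K4me1) and 2 (H3K27ac). Without 1 library they ranged from 10 to 21 and from 16 to 66, tumour-only counts from 0 to 1 (Myc, RNAPII) and 0 to 2 (H3K27ac), RNAPII spleen-only from 0 to 2, and common counts from 1 to 2 (Myc, RNAPII), 5 to 8 (H3K4me1) and 3 to 5 (H3K27ac). With equal numbers of peaks the later to earlier ratios of Myc were 0.818 (MycER), 0.583 (serum) and 1.00 (P493-6), and per 1000 peaks they were 0.682 for serum and 0.347 for P493-6. The P493-6 RNAPII ratio (10 peaks against 4) was 0.750 with equal numbers. The Myc percentile difference at the gene was 6.32 to 25.9 points without 1 library and, by rank from the top (added later), had an exact permutation p = 0.800. The causes of these shifts were not tested. Same-numbered Myc libraries of transgenic spleen and tumours had correlations of 0.01, -0.12 and -0.12 across regions, and differently numbered ones -0.12 to 0.16. Percentiles depend on list length, so these values cannot decide whether the numbers pair the libraries. With a replicate block by sign flips the Myc ratio was 1.33 (exact p = 0.50). RNAPII and H3K27ac share fewer than 2 numbers between spleen and tumours, so no block was possible there. The groups of 1 to 4 libraries, unknown depth and tied scores at 3100 limit what the lists can separate.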
